A study of Mus musculus with 18 samples.

Results

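C2C12 is a mouse myoblast line whose cells stop dividing, fuse and become multinucleated myotubes when serum is lowered. Polyadenylated RNA of 6 of the 18 libraries of the series was compared here: 3 libraries of myotubes labelled as a Dlk1-Dio3 knockout, clone 2-7, against 3 libraries of control myotubes, all taken on day 3 of differentiation. The libraries were assigned to their groups by their labels, and the comparison covers all genes in the count table. The control is a population of cells that took up the empty vector pX458, introduced with polyethylenimine, and were sorted for its green fluorescence. Clone 2-7 was grown by limiting dilution from cells sorted the same way after transfection with a pair of Cas9 guide constructs that cut at the Meg3 promoter, and its deletion was genotyped by PCR. It is 1 clone, so genotype and clone cannot be told apart, and neither can an edited clone and an uncloned control. All lines grew to confluence in DMEM with 10% fetal bovine serum and were then switched to DMEM with 2% horse serum. The labels number the 3 libraries of a line A, B and C and do not say that they come from separate clones or transfections, so the p-values measure the spread between these libraries only. Myoblasts of the same 2 lines (6 libraries) and myotubes of a clone labelled overexpressor (3 libraries) are drawn on where they bear on a result.

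The Dlk1-Dio3 cluster is an imprinted region that gives rise to the long noncoding RNAs Meg3, Rian and Mirg, to many small RNAs inside them, and to the protein-coding genes Dlk1, Rtl1 and Dio3. In muscle the cluster is known for its activity in progenitor cells and in growing muscle. Myotube formation itself is driven by the factors MyoD and myogenin, which turn on the genes of the sarcomere (the contractile unit of actin and myosin filaments), of calcium release and of the neuromuscular synapse, while the cells lay down extracellular matrix around the fibres.

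The total was 48217062 to 60491782 counts in the control and 52718190 to 63456607 in clone 2-7. Levels are given as CPM, counts per 1000000 of a library total scaled by its TMM factor (0.895 to 0.917 in the control and 0.907 to 0.959 in clone 2-7). A count of 0 allows at most 3 counts, 0.0502 to 0.0686 CPM depending on the library, and these limits and all counts cover counting error only. All 11 listed myotube markers were measured in both groups, and their summed level ran from 20199 to 20946 CPM in the control and from 46084 to 56292 CPM in clone 2-7, so both groups carry the RNA of differentiated muscle. Differences are log2 fold changes of clone 2-7 over control from edgeR's quasi-likelihood test, adjusted by the Benjamini-Hochberg method over all 17912 genes tested. A gene is said to have risen or fallen at an adjusted p under 0.05. Coordinates are those of GENCODE M21 on GRCm38.

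The difference between the groups moved with base composition and transcript length. Over 10 equal bins of the tested genes ordered by exonic GC content, the median log2 difference ran from -0.79 in the bin with the least GC to 0.23 in the bin with the most. Within the myoblasts of the same lines the same bins ran from 0.14 to -0.17. In the bin with the least GC, the median of log2(CPM + 0.5) minus the control mean was -0.30 in library A of clone 2-7, -0.59 in B and -0.67 in C, against -0.09 to 0.14 in the control libraries. By length the medians ran from 0.17 for the shortest genes to -0.53 for the longest. Reads on CT010467.1, a ribosomal RNA gene outside the target of polyA selection, were at 1807 ± 310 CPM in the control and 5432 ± 1997 CPM in clone 2-7 (SD, n = 3). The part these properties play in single results was not tested, but a fit with a GC trend removed in each library, added after the data had been seen, is given beside most groups of genes.

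**Figure D1:**
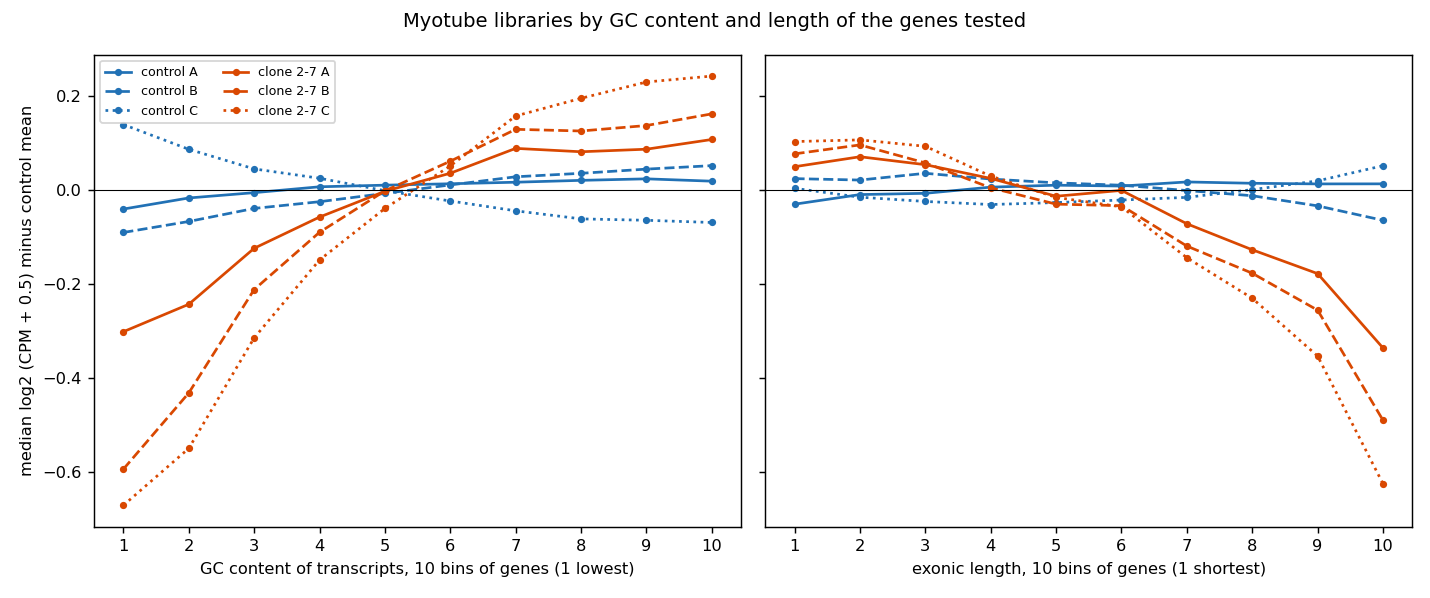
Median over genes of log2(CPM + 0.5) minus the control mean, for each control (blue) and clone 2-7 (orange) myotube library, in 10 equal bins of the tested genes by GC content (left) and exonic length (right). In the bin with the least GC the clone 2-7 libraries lie at -0.30, -0.59 and -0.67, below all control libraries.

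The genes of the cluster were examined first, since they bear on the labels. Meg3 (chromosome 12, 109541001 to 109571726, plus strand) and Mirg had 0 counts in all 6 libraries, so the gene whose promoter was targeted did not separate the groups and gives no check of the label. Rtl1, a retrotransposon-derived protein-coding gene, had 0 counts in the 3 control libraries and 0.6999, 0.569 and 0.648 CPM in libraries A, B and C of clone 2-7, at least 10.7-fold higher. Rian stood at 0 in the control and at 1 to 4 counts per library in clone 2-7, which is at the limit of detection. Dlk1 and Dio3 had too few counts to be tested. Of 17 genes that flank the cluster and were tested, 13 fell and 3 rose, beside 37.0% and 31.0% of all genes tested. Their median log2 difference was -0.51 against -0.07 over all genes. The tryptophanyl-tRNA synthetase gene Wars went from 338 ± 18.7 to 94.6 ± 7.29 CPM and the chaperone gene Hsp90aa1 from 84.8 ± 14.3 to 21.9 ± 6.595 CPM (SD, n = 3). The zinc finger gene Zfp839 went from 11.5 ± 0.911 to 3.47 ± 0.399 CPM.

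Across all genes, 5557 rose in clone 2-7 myotubes (31.0% of those tested) and 6621 fell (37.0%). Every count of list members in myotubes stands beside these shares. With a fold change of at least 2 as well, 2353 rose (13.1%) and 3144 fell (17.6%). Levels in the 3 libraries of clone 2-7 were all above those of the control for 5898 genes and all below for 6822, beside the 31.0% and 37.0% called. Which direction held more genes turned with scaling: with DESeq2 size factors 6528 rose and 5731 fell, 2752 and 2669 of them by at least 2-fold. The changes moved large parts of the RNA. Called genes were ranked by gain and loss in CPM, leaving out genes of the mitochondrial genome and those with clone-based or predicted names. The 8 genes with the largest gain in CPM were H19, Acta1, Des, Tpm2, Acta2, Myl4, Actc1 and Mylpf, a noncoding RNA and 7 genes of the contractile apparatus, and together they took 2.04 ± 0.0658% of the counts in the control and 7.88 ± 0.531% in clone 2-7 (SD, n = 3). The 8 with the largest loss were Fn1, Col3a1, Sparc, Fbn1, Col1a2, Col5a1, Col1a1 and Bgn, all of the extracellular matrix, and they went from 7.34 ± 0.0736% to 1.499 ± 0.0940% of the counts. Since these RNAs were measured in bulk, fewer cells of a type and less RNA per cell cannot be told apart.

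**Figure D2:**
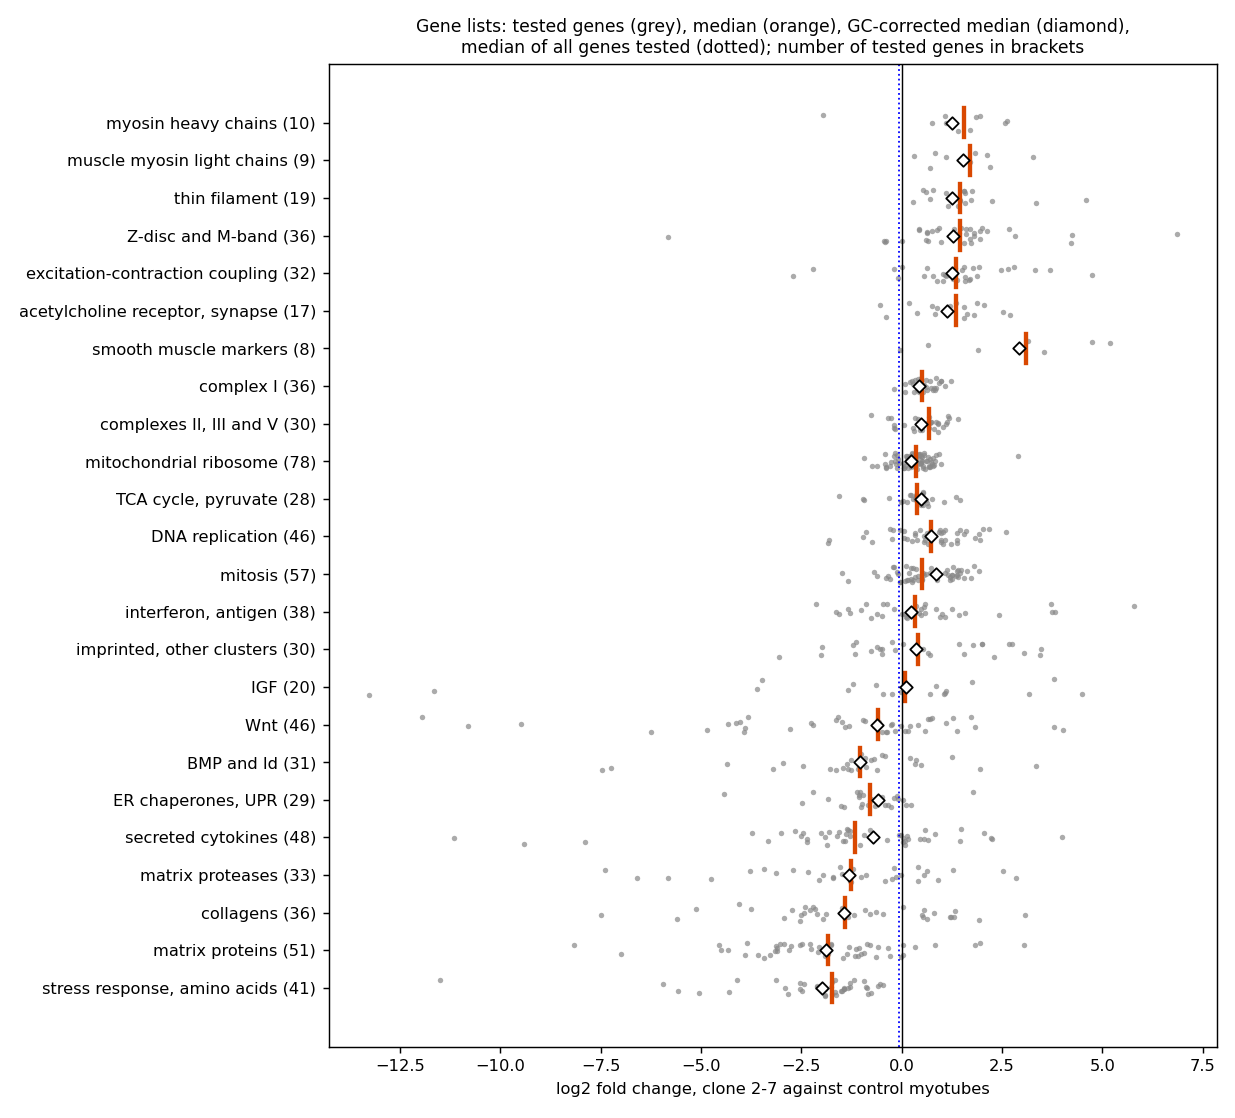
Log2 fold change of clone 2-7 over control myotubes for the tested genes (grey points) of 24 gene lists, with each list's median (orange bar) and GC-corrected median (diamond); the dotted line is the median of all genes tested, -0.07. Medians of the contractile lists lie above 1 and those of the collagen, matrix protein and amino acid response lists below -1.

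Most genes that make up the sarcomere were higher in clone 2-7 myotubes, and not only the fast skeletal forms. Tnnc1, Tnni1 and Tnnt2, the partners of the fast troponin genes Tnnc2, Tnni2 and Tnnt3, were called higher too. Skeletal alpha-actin, Acta1 (chromosome 8, 123891769 to 123894751, minus strand), the main thin filament protein, was at 5649, 5587 and 4771 CPM in control libraries A, B and C and at 14058, 15596 and 17494 CPM in those of clone 2-7. The groups did not overlap, and the log2 difference was 1.56 ± 0.23 (SE, adjusted p = 2.84e-05). Of 19 thin filament genes tested, 17 rose and 0 fell, with a median log2 difference of 1.46 and of 1.25 after GC correction. The fast troponin C gene Tnnc2 rose from 527 ± 22.01 to 2516 ± 275 CPM, the beta-tropomyosin gene Tpm2 from 2687 ± 111 to 8020.2 ± 868 CPM, and the tropomodulin gene Tmod4, which caps the filament, from 0.458 ± 0.0632 to 4.73 ± 0.472 CPM. The 2 members that did not pass were Lmod2, at 125 and 152 CPM and called by DESeq2's test, and Nebl, which is near the detection limit.

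The myosin heavy chain genes, most of which code for the motor of a fibre type or stage, rose in 9 of 10 cases with a median log2 difference of 1.55 (1.26 after GC correction). The fast adult chain Myh4 was at 87.5, 111 and 122 CPM in the control libraries and 643, 625 and 727 CPM in clone 2-7, a log2 difference of 2.64 ± 0.22 (adjusted p = 5.02e-08). The perinatal chain Myh8 was at 130.3, 124 and 153 CPM against 524, 519 and 538 CPM. In both genes every clone 2-7 library lay above every control library. The embryonic chain Myh3, the most abundant, rose from 4409 ± 497 to 7465 ± 188 CPM. The 9 that rose include Myh14, a nonmuscle chain. Myh13, the chain of extraocular muscle, was the exception and fell from 3.33 ± 0.473 to 0.856 ± 0.176 CPM. The pool of heavy chain RNA therefore changed in make-up as well as size: on counts per kilobase, Myh3 made 82.3 ± 0.567% of it in the control and 69.98 ± 0.272% in clone 2-7, Myh1 7.44 ± 0.344% and 13.5 ± 0.3696%, and Myh4 2.01 ± 0.306% and 6.27 ± 0.358% (SD, n = 3). With 3 libraries against 3, an exact two-sided permutation test of such a share cannot go below 0.1, the value reached wherever the groups do not overlap. Among 9 light chain and light chain kinase genes, 8 rose, led by the slow ventricular chain Myl2, from 1.26 ± 0.373 to 12.3 ± 2.304 CPM, and the embryonic chain Myl4, from 1439 ± 71.4 to 6603 ± 1085 CPM.

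**Figure D3:**
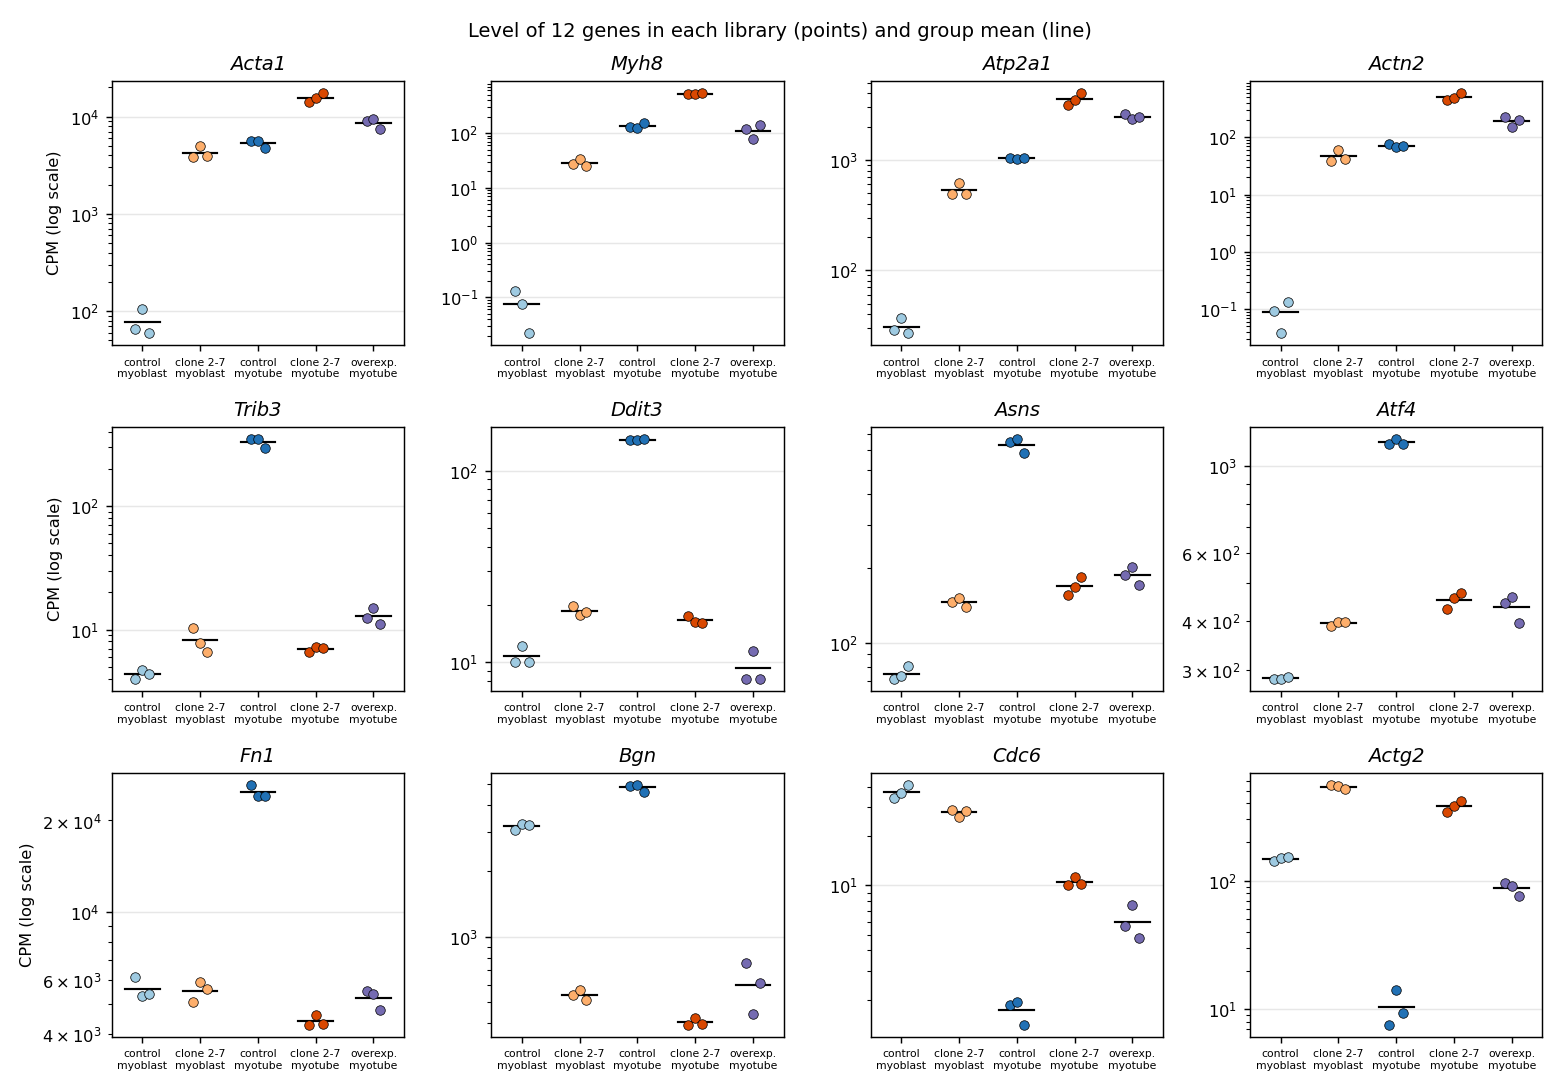
Level of 12 genes in each library (points, CPM on a log axis) with the group mean (line), in control and clone 2-7 myoblasts and in control, clone 2-7 and overexpressor myotubes. The 3 clone 2-7 myotube libraries lie above the control myotubes for Acta1, Myh8, Atp2a1, Actn2, Cdc6 and Actg2 and below them for Trib3, Ddit3, Asns, Atf4, Fn1 and Bgn.

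The Z-disc and M-band anchor the filaments of the sarcomere, and 31 of their 36 tested genes rose while 3 fell (median log2 difference 1.46, GC-corrected 1.27). The Z-disc cross-linker Actn2 was at 75.5, 69.1 and 70.5 CPM in the control and 455, 485 and 596 CPM in clone 2-7, 7.14-fold higher. Desmin, Des, the intermediate filament that ties neighbouring Z-discs, rose from 2105 ± 36.95 to 8131 ± 1226 CPM. Other large rises were those of Mybpc2, fast myosin-binding protein C (log2 difference 4.22), of the Z-disc protein gene Myoz1 (log2 difference 4.24) and of Mybpc1 (log2 difference 2.67). The 3 that fell were Xirp2, from 4.901 ± 1.25 to 0.0854 ± 0.0297 CPM, Ankrd2 (log2 difference -0.44) and Csrp3 (log2 difference -0.38). Only 1 member fell with DESeq2 size factors or without library A or B of either group. Titin, Ttn, did not pass, at 698 ± 93 against 523 ± 105 CPM (adjusted p = 0.181).

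Calcium release and membrane excitation genes rose in 27 of 32 cases and fell in 2 (median log2 difference 1.35, GC-corrected 1.25). The calcium pump of fast fibres, Atp2a1, was at 1031, 1020.1 and 1045 CPM in the control and 3127, 3467 and 4038 CPM in clone 2-7. Calsequestrin 1, Casq1, which buffers calcium in the store of fast fibres, rose from 49.6 ± 1.95 to 313 ± 54.7 CPM. The chloride channel gene Clcn1 rose from 0.219 ± 0.0648 to 6.02 ± 0.902 CPM and the calcium buffer Pvalb from 2.51 ± 0.505 to 17.6 ± 1.53 CPM. The adult skeletal sodium channel Scn4a rose from 29.2 ± 0.576 to 164 ± 14 CPM. The phosphatase gene Mtm1 fell, from 21.03 ± 2.62 to 3.21 ± 1.29 CPM.

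The muscle side of the neuromuscular synapse followed the same direction, with 15 of 17 genes up and 2 down (median log2 difference 1.35, GC-corrected 1.14). Chrne, the acetylcholine receptor subunit of adult synapses, was at 0.8901, 1.21 and 1.12 CPM in the control libraries and 5.92, 6.34 and 8.65 CPM in clone 2-7. Its fetal counterpart Chrng rose less, from 569 ± 22.4 to 1017 ± 127 CPM, and stayed by far the more abundant on counts per kilobase, since the share of Chrne in the pair went from 0.465 ± 0.0865% to 1.65 ± 0.136%. Rapsn, which clusters the receptor, rose from 72.6 ± 4.87 to 303 ± 24.3 CPM and the esterase Ache from 6.15 ± 0.184 to 35.7 ± 6.32 CPM. Agrin, Agrn (log2 difference -0.38), and its receptor Lrp4 (log2 difference -0.53) were the members that fell.

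Many proteins of muscle come in related forms, and 29 pairs of such genes were compared on counts per kilobase. In most pairs the first gene is a form of muscle and the second a general form, as in Cav3 with Cav1. In others both are muscle genes and the first is the fast, adult or later one, as in Tnnc2, Tnni2, Tnnt3, Mylpf, Casq1, Chrne and Myh8, while the first-named Ldhb and Cox4i1 are not forms particular to skeletal muscle. The share of the first-named gene was higher in every clone 2-7 library than in every control library for 19 pairs, lower for 5 and overlapping for 5. By the same measure, the levels of 5898 of all 17912 genes tested lay above the control and those of 6822 below. Muscle caveolin, Cav3, made 42.7 ± 0.332% of its pair with Cav1 in the control and 93.5 ± 1.27% in clone 2-7, where Cav1 fell from 506 ± 20.2 to 33.04 ± 3.397 CPM. Actn2 went from 21.3 ± 1.12% to 62.2 ± 3.81% of its pair with Actn1, Tnnc2 from 23.2 ± 0.287% to 48.6 ± 0.879% of its pair with the slow Tnnc1, and the insulin-responsive glucose carrier Slc2a4 from 1.39 ± 0.191% to 16.7 ± 0.455% of its pair with Slc2a1. The kinase pair went the other way. Mylk2 made 88.3 ± 0.183% and 60.1 ± 4.57% of the pair, in which the smooth muscle kinase Mylk rose from 16.6 ± 0.0366 to 134 ± 9.59 CPM. The other first-named genes with a lower share were Cox6a2, Eno3, Fabp3 and Mylpf, and Tnnt3, Tnni2, Hk2, Cpt1b and Cox4i1 overlapped.

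**Figure D4:**
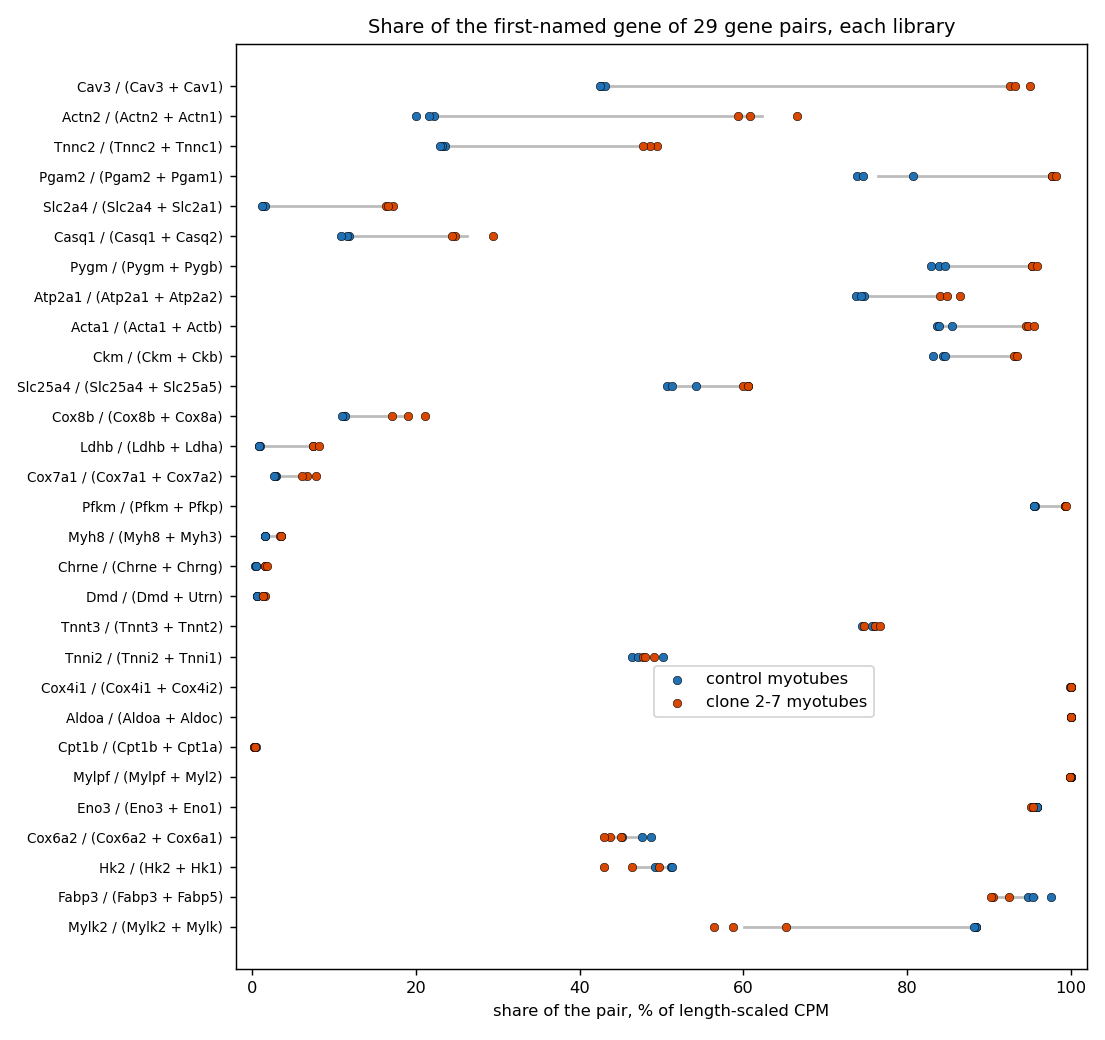
Share of the first-named gene in each of 29 gene pairs, in percent of the pair's length-scaled CPM, for each control (blue) and clone 2-7 (orange) myotube library; the grey line joins the group means. The share is higher in all clone 2-7 libraries for 19 pairs, and Mylk2 is the pair furthest in the other direction.

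The promoters of the myotube markers were read for the E-box CAGCTG, a sequence bound by MyoD and myogenin. Promoters are the 300 bases from 250 before to 50 after a RefSeq gene start (GRCm38.p6), and the motif was searched on both strands, where it reads the same. It was found in 6 of the 9 markers with a promoter in the table (66.7%) and in 2169 of 11508 tested genes (18.8%). The lists of sarcomere genes ranged widely: 4 of 8 myosin light chain genes held it (50%), 11 of 26 Z-disc and M-band genes (42.3%), 6 of 15 thin filament genes (40%) and 1 of 10 myosin heavy chain genes (10%). Chrna1, the receptor's alpha subunit, and the fast light chain gene Mylpf are shown as examples of a receptor and a filament gene that rose, with the E-boxes in capitals. The Chrna1 window (chr2:73580289-73580588, minus strand) holds them 92 and 44 bases before the start, and the Mylpf window (chr7:127211358-127211657, plus strand) holds 1 at 51 bases before.
Chrna1: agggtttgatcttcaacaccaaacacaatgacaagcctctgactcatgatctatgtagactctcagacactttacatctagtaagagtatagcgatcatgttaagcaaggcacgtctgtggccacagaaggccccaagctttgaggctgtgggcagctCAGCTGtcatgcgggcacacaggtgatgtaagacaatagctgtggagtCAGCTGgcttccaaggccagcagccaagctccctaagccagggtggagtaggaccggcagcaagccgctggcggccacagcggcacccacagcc
Mylpf: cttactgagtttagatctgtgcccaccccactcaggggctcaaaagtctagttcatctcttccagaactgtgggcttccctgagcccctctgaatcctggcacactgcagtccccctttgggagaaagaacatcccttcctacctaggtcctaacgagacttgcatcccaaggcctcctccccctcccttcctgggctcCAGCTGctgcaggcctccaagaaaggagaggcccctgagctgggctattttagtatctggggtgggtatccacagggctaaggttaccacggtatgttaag
A match describes the letters and not binding. Chrna1 was at 1149.6, 1095 and 1047 CPM in the control and 1934, 1969 and 2162 CPM in clone 2-7, and Mylpf at 3331, 3853 and 3228 CPM and 6769, 7297 and 8395 CPM. Neither gene's groups overlapped.

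The factors that drive the programme were mixed. Of 17 myogenic factor genes tested, 5 rose and 3 fell, beside 31.0% and 37.0% of all genes tested, and 8 rose after GC correction. Myogenin, Myog, rose from 1731 ± 59.6 to 2531 ± 177 CPM, Myod1 from 216 ± 18.8 to 385 ± 35.2 CPM, and Myf6, the factor of mature fibres, from 2.53 ± 0.327 to 10.9 ± 0.248 CPM. Mef2d rose (log2 difference 1.02) and Mef2a fell (log2 difference -1.02). The fusogen genes Mymk and Mymx rose by 0.58 and 0.55 on the log2 scale. The fusion and adhesion list as a whole was split, with 7 of 21 up and 9 down, near the 31.0% and 37.0% of all genes. The satellite cell factor Pax7 rose from 5.64 ± 0.05397 to 12.6 ± 1.53 CPM, and the surface marker Cd34 fell from 172 ± 5.57 to 3.97 ± 0.0863 CPM.

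Markers of smooth muscle were also higher in clone 2-7 myotubes. Smooth muscle gamma-actin, Actg2 (chromosome 6, 83512905 to 83536265, minus strand), was at 7.61, 14.2 and 9.45 CPM in the control and 341, 379 and 416 CPM in clone 2-7, 36.5-fold higher (adjusted p = 5.54e-13). Transgelin, Tagln, which binds actin in smooth muscle, was at 36.1, 58.7 and 49.3 CPM against 518, 556 and 606 CPM. Neither gene's groups overlapped. In all, 7 of 8 markers rose and none fell (median log2 difference 3.11, GC-corrected 2.93), and their sum ran from 1968 to 2345 CPM in the control and from 7908 to 9105 CPM in clone 2-7. The defining smooth muscle myosin, Myh11, did not pass, at 0.153 ± 0.105 and 0.144 ± 0.0875 CPM, and the smooth muscle regulator Myocd reached 0.236 CPM in clone 2-7. Immature skeletal muscle transcribes several of these genes too, and a change in cell type was not tested. A wider list holds smooth muscle genes, the factors SRF and YAP, their partners and their targets. Of its genes, 19 of 32 rose and 8 fell (5 with DESeq2 size factors), beside 31.0% and 37.0% of all genes tested. Ccn2 rose from 30.9 ± 6.801 to 292 ± 13.4 CPM and Myl9 from 24.1 ± 3.54 to 228 ± 15 CPM, and the opposite case was Ankrd1, from 1143 ± 126 to 376 ± 33.6 CPM. The CArG box, the site of SRF, was found in 4 of the 25 members of this wider list with a promoter (16%; Cnn2, Myl9, Vcl and Srf) and in 195 of 11508 tested genes (1.69%). None of the 4 smooth muscle markers with a promoter held it. Cardiac markers rose in 4 of 5 tested cases, including the cardiac troponin I gene Tnni3, from 0.329 ± 0.156 to 8.08 ± 0.407 CPM, and the factor Nkx2-5, from 2.38 ± 0.278 to 14.3 ± 1.95 CPM, while the atrial genes Nppa, Nppb and Myl7 stayed at 3 counts or fewer in every library.

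Genes of the amino acid response were lower in clone 2-7 myotubes without exception. This response is set off when an amino acid is scarce or proteins misfold: kinases slow translation through eIF2 alpha, the factor ATF4 is made, and it turns on genes that import and make amino acids and charge tRNAs. All 41 listed genes were tested and all 41 fell, 33 of them by at least 2-fold, with a median log2 difference of -1.74, and all 41 also fell after GC correction (median log2 difference -1.97). Their summed level ran from 16000.3 to 16818 CPM in the control libraries and from 5794 to 6414 CPM in clone 2-7. In the myoblasts of the same lines, 27 of the 41 were higher in clone 2-7 and 7 lower, beside 26.4% and 26.6% of all genes tested.

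ATF4 and its partners bind a composite element written TGATGNAA. In the RefSeq promoters it was found on either strand in 12 of the 34 listed genes with a promoter in the table (35.3%) and in 327 of 11508 tested genes (2.84%). The holders were Atf3, Trib3, Chac1, Asns, Pycr1, Slc7a11, Slc1a4, Vldlr, Nupr1, Aars, Gars and Yars. The 5 shown are those on which the values below turn, with the element, in either orientation, in capitals. It starts 14 bases after the gene start in Trib3 (chr2:152344011-152344310, minus strand), and before the start by 193 bases in Chac1 (chr2:119350992-119351291, plus strand), 23 in Asns (chr6:7693160-7693459, minus strand), 200 in Vldlr (chr19:27216770-27217069, plus strand, the first of 2 windows in the table) and 66 and 47 in Slc7a11 (chr3:50443564-50443863, minus strand), which holds it in both orientations.
Trib3: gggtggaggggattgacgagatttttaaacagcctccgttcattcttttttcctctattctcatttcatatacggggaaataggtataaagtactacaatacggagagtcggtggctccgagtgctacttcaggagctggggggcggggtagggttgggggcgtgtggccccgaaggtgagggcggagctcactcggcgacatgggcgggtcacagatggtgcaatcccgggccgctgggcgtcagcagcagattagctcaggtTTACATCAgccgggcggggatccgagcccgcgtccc
Chac1: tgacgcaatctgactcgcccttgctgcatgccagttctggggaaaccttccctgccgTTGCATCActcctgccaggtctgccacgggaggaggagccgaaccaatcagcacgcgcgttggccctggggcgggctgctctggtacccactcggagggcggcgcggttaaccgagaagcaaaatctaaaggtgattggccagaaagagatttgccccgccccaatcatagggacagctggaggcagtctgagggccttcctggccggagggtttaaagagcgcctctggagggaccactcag
Asns: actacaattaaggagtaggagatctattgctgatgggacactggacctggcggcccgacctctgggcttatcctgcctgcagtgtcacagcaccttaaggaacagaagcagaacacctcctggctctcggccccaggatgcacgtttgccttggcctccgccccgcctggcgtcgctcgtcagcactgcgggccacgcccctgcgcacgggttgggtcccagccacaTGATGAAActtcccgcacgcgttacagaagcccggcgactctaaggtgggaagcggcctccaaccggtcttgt
Vldlr: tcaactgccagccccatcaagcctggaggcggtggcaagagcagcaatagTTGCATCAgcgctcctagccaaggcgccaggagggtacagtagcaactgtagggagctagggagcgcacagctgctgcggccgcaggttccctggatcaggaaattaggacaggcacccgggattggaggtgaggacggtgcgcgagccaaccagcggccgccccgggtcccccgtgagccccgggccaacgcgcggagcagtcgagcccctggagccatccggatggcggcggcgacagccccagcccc
Slc7a11: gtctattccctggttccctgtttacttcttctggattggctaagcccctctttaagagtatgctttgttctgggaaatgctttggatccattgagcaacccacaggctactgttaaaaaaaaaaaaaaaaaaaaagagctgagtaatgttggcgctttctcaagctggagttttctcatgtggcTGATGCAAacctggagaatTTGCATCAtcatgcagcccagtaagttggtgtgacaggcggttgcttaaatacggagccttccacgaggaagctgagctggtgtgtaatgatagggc
A match is a description of the sequence, and no factor was measured on it here.

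The pseudokinase gene Trib3 (chromosome 2, 152337422 to 152344032, minus strand), a target and brake of ATF4, was at 352, 348 and 299 CPM in control libraries A, B and C and at 6.57, 7.18 and 7.11 CPM in clone 2-7. No libraries overlapped, and the groups lay 47.9-fold apart (adjusted p = 6.29e-15). Atf4 itself was at 1139, 1176 and 1143 CPM against 430.3, 458 and 474 CPM, a log2 difference of -1.34 ± 0.06. Ddit3, the factor CHOP, was at 145, 144 and 147 CPM against 17.5, 16.3 and 16.1 CPM. Ddit3 overlaps Mars and Atf5 overlaps Nup62 on the opposite strand, and the use of strand in counting is not given in the sources used here, so reads of the partners may be mixed in. Atf5 fell from 1357 ± 35.6 to 191 ± 20.1 CPM and the glutathione-degrading enzyme Chac1 from 210.1 ± 13.1 to 36.6 ± 4.73 CPM.

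Enzymes and carriers of amino acids followed. Asparagine synthetase, Asns, was at 647, 666 and 582 CPM in the control and 156, 168 and 184 CPM in clone 2-7. Cystathionine gamma-lyase, Cth, which makes cysteine, fell from 52.8 ± 1.79 to 1.57 ± 0.3501 CPM, and the serine enzyme Psph from 165 ± 14.8 to 29.4 ± 1.605 CPM. The cystine carrier Slc7a11 was at 24.8, 24.05 and 27.4 CPM against 0.512, 0.318 and 0.397 CPM. The leucine carrier Slc7a5 and its partner chain Slc3a2 fell by 1.52 and 1.65 on the log2 scale. The lipoprotein receptor gene Vldlr, a further ATF4 target, was at 63.8, 53.04 and 59.8 CPM in the control and at or under 3 counts in every clone 2-7 library, at least 1076-fold lower. Among tRNA synthetases, Eprs fell by 1.92, Nars by 1.63 and Gars by 0.94 on the log2 scale. The stress hormone genes were lower as well: Gdf15 fell from 96.3 ± 8.98 to 5.03 ± 0.783 CPM and Fgf21 from 153 ± 14.6 to 61.9 ± 5.23 CPM.

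The related programme of the endoplasmic reticulum, which folds secreted proteins, was lower for 22 of 29 genes and higher for 2 (median log2 difference -0.79, GC-corrected -0.60). The chaperone BiP, Hspa5, fell from 871 ± 60.4 to 437 ± 37.7 CPM. The oxidase gene Ero1l fell most, from 161 ± 12.1 to 7.45 ± 0.821 CPM, followed by the degradation factor Edem1, from 125 ± 5.23 to 22.4 ± 1.54 CPM. Sdf2l1, a co-chaperone of the same compartment, went against the list and rose from 6.02 ± 0.589 to 20.8 ± 1.39 CPM.

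The extracellular matrix was lower in clone 2-7 myotubes. Fibronectin, Fn1 (chromosome 1, 71585520 to 71653200, minus strand), a cell-binding glycoprotein, was at 26204, 24135 and 24004 CPM in the control and 4294, 4629.8 and 4319.8 CPM in clone 2-7, 5.61-fold lower (adjusted p = 3.01e-14). The small proteoglycan gene Bgn was at 4896, 4968 and 4597 CPM against 395, 424 and 398 CPM, and fibrillin 1, Fbn1, the backbone of microfibrils, at 6096, 5821 and 5842 CPM against 264, 280.3 and 241 CPM. None of these groups overlapped. Of 51 matrix glycoprotein, proteoglycan and cross-linking genes tested, 41 fell and 5 rose (median log2 difference -1.83, GC-corrected -1.87), and the summed level ran from 59037 to 62204 CPM in the control and from 12550.3 to 13319 CPM in clone 2-7. The 5 that rose were the lysyl oxidase gene Loxl2, from 7.403 ± 1.52 to 61.2 ± 1.21 CPM, the calcification inhibitor Mgp (log2 difference 1.95), Sparcl1 (log2 difference 1.82) and the basement membrane nidogens Nid2 (log2 difference 0.84) and Nid1 (log2 difference 0.34, not called after GC correction).

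Among 36 collagen chain genes, 24 fell and 7 rose (median log2 difference -1.42, GC-corrected -1.44). The fibrillar chain Col3a1 was at 19039, 17651 and 18210.1 CPM in the control and 4956, 5447 and 4572 CPM in clone 2-7. Col1a1, Col1a2 and Col5a1 fell by 2.10, 2.53 and 2.73, and the microfibril chains Col6a1, Col6a2 and Col6a3 by 2.29, 2.41 and 2.50, all on the log2 scale. The basement membrane collagen Col15a1 had the largest fall, from 269 ± 35.2 to 1.499 ± 0.219 CPM. The main chains of basement membrane type IV collagen moved the other way, with Col4a1 going from 584 ± 25.6 to 901 ± 59.7 CPM and Col4a2 from 471 ± 28.5 to 697 ± 39.5 CPM. Serpinh1, the chaperone that folds collagen, fell from 2884 ± 243 to 878 ± 45.6 CPM, and Lox, which cross-links it, from 871 ± 27.3 to 99.1 ± 24.3 CPM.

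Matrix proteases and their inhibitors fell in 22 of 33 cases and rose in 8 (median log2 difference -1.27, GC-corrected -1.31). The gelatinase gene Mmp2 was at 1840.5, 1692 and 1568 CPM against 61.2, 63.3 and 65.7 CPM, and the inhibitor gene Timp3 at 1655, 1645 and 1809 CPM against 34.9, 31.2 and 23.9 CPM. Both the protease and the inhibitor lay below the control in every library. Markers of fibroblasts, the other cells that make matrix, moved along: 7 of 9 tested fell and none rose, and their sum, which includes Col3a1, ran from 18210.4 to 19636 CPM in the control and from 4741 to 5631 CPM in clone 2-7. Dpt fell from 88.96 ± 4.13 to 0.429 ± 0.0652 CPM and Ly6a from 98.2 ± 11.3 to 0.347 ± 0.0409 CPM, while Dcn stood at 46.6 ± 6.67 and 48.1 ± 4.68 CPM and did not pass, though it was higher after GC correction (log2 difference 0.77). The defining marker Thy1 had at most 4 counts in any library. The part of other cells in the matrix result was not tested.

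The links between fibre and matrix were split. Integrins and laminins, the receptors and ligands of the basement membrane, fell in 15 of 29 cases and rose in 9. Of all genes tested, 37.0% fell and 31.0% rose. The median log2 difference of the list was -0.28, GC-corrected -0.53. Laminin alpha 2, Lama2, the chain of adult muscle, was at 36.8, 33.6 and 40.3 CPM in the control and 101, 101 and 86.1 CPM in clone 2-7, and the embryonic chain Lama1 at 9.03, 10.9 and 11.5 CPM against 0.239, 0.318 and 0.209 CPM. The chains thus lay apart in opposite directions, without overlap. The fibronectin receptor subunit Itga5 fell from 470.4 ± 28.5 to 242 ± 18.1 CPM, and Itga7, the laminin receptor subunit of muscle, rose from 1185 ± 41.97 to 1502 ± 180.2 CPM, a call lost after GC correction (log2 difference 0.06). In the dystrophin complex, which ties the cytoskeleton to laminin, 10 of 21 genes rose and 8 fell (31.0% and 37.0% of all genes). Dystroglycan, Dag1, rose from 562 ± 4.83 to 1292 ± 27.3 CPM and dystrophin, Dmd, from 1.36 ± 0.217 to 3.301 ± 0.892 CPM, whereas the nitric oxide synthase that docks on the complex, Nos1, fell from 27.9 ± 2.84 to 3.21 ± 0.288 CPM.

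Secreted signals fell more often than they rose. Of 48 cytokine and growth factor genes, 27 fell and 10 rose (median log2 difference -1.16, GC-corrected -0.72). The blood vessel growth factor Vegfa was at 376, 369 and 419 CPM in the control and 44.8, 38.5 and 32.99 CPM in clone 2-7, and the chemokine Cxcl12 at 291, 258 and 251 CPM against 22.4, 21.8 and 15.7 CPM. Neither gene's groups overlapped. The macrophage factor Csf1 fell by 1.87, the neurotrophin Bdnf by 2.66 and Angptl4, an inhibitor of lipoprotein lipase, by 3.00 on the log2 scale. Vegfb (log2 difference 1.48) and the chemokine gene Ccl2 (log2 difference 2.05) rose.

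The insulin-like growth factor system, which drives muscle growth, was split into 8 genes up and 9 down of 20. Of all genes tested, 31.0% were up and 37.0% down. The median log2 difference of the list was 0.09, GC-corrected 0.10. The ligand Igf1 was at 74.3, 72.3 and 85.9 CPM in the control and 8.59, 5.97 and 6.33 CPM in clone 2-7, and the ligand Igf2 fell from 23.7 ± 2.94 to 10.3 ± 1.75 CPM. The receptor Igf1r rose from 68.6 ± 1.39 to 125 ± 14.8 CPM. The binding proteins, which hold the ligands outside the cell, moved apart. Igfbp3 was at 141 ± 4.098 CPM in the control and at or under 3 counts in each clone 2-7 library, at least 2586-fold lower, and Igfbp4 fell from 242 ± 47.5 to 20.03 ± 3.21 CPM. Igfbp2 rose from 8.02 ± 1.71 to 111 ± 7.698 CPM and Igfbp5 from 2189.9 ± 152 to 4594 ± 165 CPM. Stc1, an inhibitor of the protease that frees the ligands, was at 123 ± 2.83 and 0.0339 ± 0.0341 CPM.

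In the TGF-beta and activin list, 19 of 30 fell and 9 rose (median log2 difference -0.67, GC-corrected -0.77). The activin subunits moved in opposite directions, Inhba falling from 47.8 ± 9.94 to 9.53 ± 3.41 CPM and Inhbb rising from 28.2 ± 0.822 to 120.0 ± 3.05 CPM. The ligand Gdf11 rose from 35.2 ± 1.74 to 121 ± 2.28 CPM and the antagonist Fst from 116 ± 4.78 to 230.3 ± 14.6 CPM, and the receptor Tgfbr2 fell from 427 ± 8.61 to 146 ± 6.18 CPM. Bone morphogenetic protein genes fell in 22 of 31 cases and rose in 6 (median log2 difference -1.04). The ligand Bmp4 fell from 54.4 ± 1.83 to 17.5 ± 3.56 CPM, its antagonist Grem1 from 145 ± 18.1 to 7.07 ± 2.27 CPM, and the receptor Bmpr1a from 106 ± 10.3 to 51.2 ± 15.1 CPM. Id3, a target of the pathway that binds the partners of MyoD, rose from 11.7 ± 1.05 to 45.6 ± 2.76 CPM. After GC correction 3 genes of this list rose.

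Of 46 Wnt pathway genes, 28 fell and 13 rose (median log2 difference -0.58, GC-corrected -0.60). The secreted Wnt antagonist Sfrp2 was at 772, 684 and 641 CPM in the control and 44.5, 46.6 and 37.8 CPM in clone 2-7. The related Sfrp1 went from 9.04 ± 0.382 CPM to 0 counts, at least 165-fold lower, and the ligand Wnt5a from 4.11 ± 0.6001 CPM to 0 counts, at least 75.1-fold lower. Both sets of control libraries lay well above the limit of 3 counts. The ligand Wnt10a rose (log2 difference 1.72). In the Notch pathway the ligand Jag1 fell from 99.5 ± 5.34 to 8.25 ± 1.07 CPM, the ligand Dll1 rose from 26.3 ± 0.935 to 54.3 ± 5.33 CPM and the target Hey1 rose from 4.13 ± 0.245 to 35.5 ± 1.17 CPM. Among fibroblast growth factor genes, 18 of 29 rose and 10 fell (13 and 11 after GC correction), beside 31.0% and 37.0% of all genes tested. The ligand Fgf10 fell from 27.7 ± 3.80 to 0.584 ± 0.215 CPM, Fgf5 rose from 0.216 ± 0.0787 to 6.74 ± 1.01 CPM, and the feedback phosphatase Dusp6 rose from 22.9 ± 0.925 to 78.2 ± 1.92 CPM.

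Genes of the respiratory chain were higher in clone 2-7 myotubes by small steps. Of 36 subunits of complex I, which takes electrons from NADH, 33 rose and 0 fell, 2 of them by at least 2-fold, with a median log2 difference of 0.50. After GC correction 28 rose and 3 fell (median log2 difference 0.43). Ndufb11 was at 123, 138 and 129 CPM in the control and 282, 295 and 334 CPM in clone 2-7, and Ndufs7 rose from 78.2 ± 2.91 to 167 ± 15.05 CPM. Subunits of complexes II, III and V rose in 23 of 30 cases and fell in 2 (median log2 difference 0.68, GC-corrected 0.50), with Uqcr11 going from 77.9 ± 2.63 to 205 ± 27.5 CPM and Atp5d from 367 ± 41.04 to 840.1 ± 111 CPM. Cytochrome oxidase genes rose in 10 of 14 cases, and its heart and muscle isoform Cox7a1 went from 1.78 ± 0.223 to 8.78 ± 1.58 CPM, while the muscle isoform Cox6a2 fell from 147 ± 5.001 to 109 ± 15.7 CPM, which did not pass with DESeq2 size factors. Calls of further subunit genes moved between fits. Cox7c (log2 difference 0.02) was called only after GC correction (0.38). Ndufb4 (log2 difference 0.32) lost its call without the filter on low counts, after GC correction or without control library A. The part of low counts and of processed gene copies in this was not tested. Mitochondrial ribosome genes rose in 50 of 78 cases and fell in 10, or 6 with DESeq2 size factors (median log2 difference 0.35, GC-corrected 0.24).

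The coactivator Ppargc1a, which drives mitochondrial gene expression, was at 1.59, 1.08 and 1.35 CPM in the control and 9.58, 7.95 and 5.85 CPM in clone 2-7, with no overlap. Its partner receptors Esrra and Esrrb rose from 47.2 ± 4.19 to 107 ± 12.7 CPM and from 0.285 ± 0.0452 to 6.06 ± 1.17 CPM, and the carrier Ucp3 from 0.186 ± 0.105 to 4.46 ± 0.289 CPM. The factor Tfam did not pass, at 37.1 and 44.5 CPM (log2 difference 0.26), but was called with DESeq2 size factors and after GC correction, and the fission gene Dnm1l fell from 85.6 ± 13.4 to 38 ± 9.43 CPM.

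Genes of energy supply were examined by pathway. Muscle creatine kinase, Ckm, was 9.76-fold higher in clone 2-7, and 7 of 8 genes of the creatine and adenylate system rose, including the muscle deaminase Ampd1, from 0.6699 ± 0.166 to 22.7 ± 2.72 CPM. The creatine carrier Slc6a8 fell from 212 ± 11.02 to 121 ± 2.92 CPM. Glycolysis and glycogen genes were split into 22 up and 13 down of 42, beside 31.0% and 37.0% of all genes tested. The muscle forms Pygm, glycogen phosphorylase, and Pgam2, phosphoglycerate mutase, rose by 2.16 and 2.88 on the log2 scale, and Ldhb rose from 2.002 ± 0.332 to 27.9 ± 4.702 CPM. The lactate carrier Slc16a3 fell from 27.5 ± 5.73 to 0.422 ± 0.108 CPM and the platelet phosphofructokinase Pfkp from 84.9 ± 1.48 to 25.5 ± 1.15 CPM. Fatty acid genes were split too, with 15 of 31 up and 10 down, beside the same shares of all genes. The uptake protein Cd36 rose from 13.97 ± 2.57 to 57.7 ± 10.5 CPM and lipoprotein lipase, Lpl, fell from 42.2 ± 4.47 to 8.14 ± 1.67 CPM.

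Replication and mitosis genes were low in both myotube groups and higher in clone 2-7. Of 46 replication genes, 33 rose and 7 fell (median log2 difference 0.72, GC-corrected 0.73). The licensing factor Cdc6 was at 1.86, 1.92 and 1.41 CPM in the control and 10.04, 11.2 and 10.2 CPM in clone 2-7, and the helicase subunit Mcm5 at 7.82, 16.2 and 10.96 CPM against 47.1, 53.6 and 57.4 CPM. The groups did not overlap in either gene, yet both stayed below the myoblasts of the same lines, where Mcm5 was at 236 ± 21.3 CPM in the control and 146 ± 6.69 CPM in clone 2-7. Orc6, of the origin recognition complex, fell from 52.2 ± 4.37 to 14.6 ± 0.724 CPM. Of 57 mitosis genes, 34 rose and 1 fell, and 46 rose after GC correction. The mitotic kinases Cdk1 and Aurkb rose from 16.7 ± 2.81 to 49.2 ± 4.404 CPM and from 6.36 ± 1.02 to 22.2 ± 1.23 CPM. The proliferation marker Mki67 did not pass, at 17.1 ± 5.24 and 16.6 ± 5.39 CPM, and the condensin gene Smc4 fell from 31.8 ± 8.97 to 11.3 ± 3.74 CPM.

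Genes that control entry into the cell cycle, inhibitors, cyclins, kinases and E2F factors together, were split, with 14 of 29 up and 9 down. Of all genes tested, 31.0% were up and 37.0% down. The inhibitor p21, Cdkn1a, which rises when myoblasts leave the cycle, was at 2514, 2393 and 2176 CPM in the control and 4089, 4318 and 5151 CPM in clone 2-7. Cyclin D3, Ccnd3, the cyclin of differentiated muscle, rose from 540.4 ± 52.8 to 1065 ± 128 CPM, and the growth-phase cyclins Ccnd1 and Ccnd2 fell by 1.52 and 1.37 on the log2 scale, the latter not without clone 2-7 library B or C. The kinase Cdk2 rose from 38.7 ± 2.97 to 127 ± 3.06 CPM, and the repressor E2f7 from 3.596 ± 0.859 to 22.2 ± 1.42 CPM.

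Imprinted genes outside the cluster rose in 13 of 30 cases and fell in 11, beside 31.0% and 37.0% of all genes tested. H19 was at 3486, 3586 and 3720.0 CPM in the control and 23316, 23568 and 26297 CPM in clone 2-7, the largest gain in CPM among the genes ranked, and its counts include those of the small RNA host within it. Zim1 and Peg3, neighbours on chromosome 7, rose from 3.403 ± 0.723 to 37.2 ± 10.2 CPM and from 57.2 ± 10.0 to 229.9 ± 52.3 CPM. The hydrolase gene Mest fell from 3.24 ± 0.586 to 0.808 ± 0.2004 CPM, and Peg13 from 22.6 ± 0.847 to 5.58 ± 0.0677 CPM.

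Interferon and antigen presentation genes rose in 15 of 38 cases and fell in 8, beside 31.0% and 37.0% of all genes tested. The factor Irf1 rose from 26.3 ± 0.979 to 78.8 ± 4.12 CPM and the peptide loading protein Tapbp from 58.6 ± 7.01 to 157 ± 9.64 CPM, and the immunoproteasome subunit Psmb8, at or under 3 counts in the control, was at least 50.8-fold higher. The class I genes H2-D1 and H2-K1 fell by 1.63 and 0.76 on the log2 scale. In the atrophy list the muscle ubiquitin ligases Trim63 and Fbxo40 rose from 30.1 ± 1.28 to 106 ± 6.397 CPM and from 4.78 ± 0.336 to 30.5 ± 3.01 CPM. Of its 29 members, however, 15 fell and 9 rose, beside 37.0% and 31.0% of all genes tested. The glucocorticoid-induced factor Klf15 was at 7.57 ± 0.554 CPM in the control and had 0 counts in clone 2-7, at least 138-fold lower.

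The largest folds belonged to genes near absence in 1 of the groups. By at least 8-fold, 540 genes rose and 646 fell. Of the 2353 genes that rose by at least 2-fold, 311 had at most 3 counts in every control library. Of the 3144 that fell by at least 2-fold, 337 had at most 3 counts in every clone 2-7 library. The X-linked Mageb4 had 0 counts in the control and 7.07, 6.18 and 7.15 CPM in clone 2-7, at least 114-fold higher. Other large rises were those of Wfdc1, at least 118-fold, Cntn3, a neural adhesion protein gene, at least 167-fold, Plac8 at 198-fold and the tendon gene Tnmd at 125-fold. Genes at 0 counts in all clone 2-7 libraries included the desmosomal protein gene Perp, at least 425-fold lower, the mesenchymal cadherin Cdh11, at least 360.4-fold, the cholesterol exporter Abcg1, at least 282-fold, and Parp11, at least 234-fold. The cadherin-related gene Cdhr1 went from 106 ± 18.1 CPM to a single count in 1 of the 3 libraries.

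Whether these differences were already there before differentiation was asked of the myoblasts of the same lines, which share no library with the myotubes. In myoblasts 4721 genes were higher in clone 2-7 (26.4% of those tested) and 4769 lower (26.6%). Of the 2353 genes that rose by at least 2-fold in myotubes, 1260 (53.5%) were also higher in myoblasts and 257 (10.9%) lower. Of the 3144 that fell, 1500 (47.7%) were also lower and 213 (6.77%) higher. At 2-fold in both stages the lists shared 972 genes that were higher, 41.3% of the myotube list and 55.7% of the myoblast list, and 878 that were lower, 27.9% and 57.5%.

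The difference between the stages was tested as an interaction, the response to differentiation of clone 2-7 minus that of the control. It was higher for 3623 genes (20.2%) and lower for 5355 (29.9%), so 40.4% of these calls were higher. This split depended on processing: with DESeq2 size factors 4623 were higher and 4273 lower (52.0% higher), and with DESeq2's own test 51.5% were higher. GC correction moved it the other way, to 3075 higher and 6015 lower (33.8% higher). The responses of single genes and lists are given without that correction. DESeq2 size factors move the median myotube difference of all genes up by 0.13 on the log2 scale, and GC correction moves it down by 0.12.

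**Figure D5:**
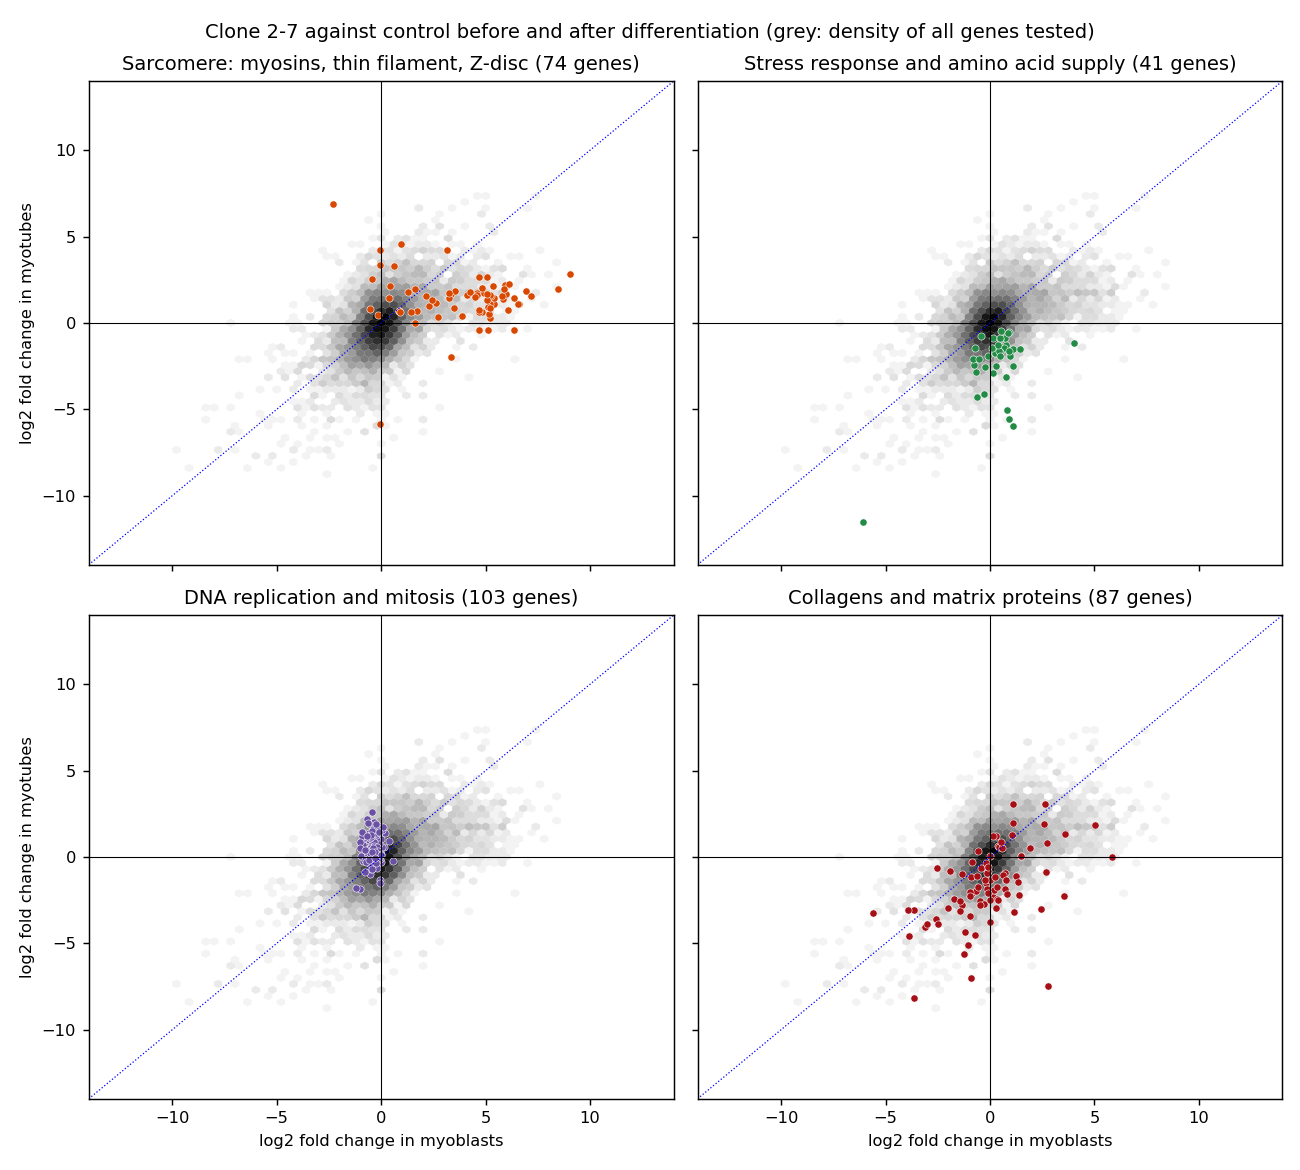
Log2 fold change of clone 2-7 over control in myoblasts (horizontal) and myotubes (vertical) for 4 sets of genes (coloured points) over the density of all genes tested (grey); the dotted line marks equal values. Most sarcomere genes are positive on both axes and further out in myoblasts, the amino acid response genes are all below 0 in myotubes, and most replication and mitosis genes are below 0 in myoblasts and above 0 in myotubes.

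On the log2 scale, sarcomere genes differed more before differentiation than after it. The 10 myosin heavy chain genes had a median difference of 5.97 in myoblasts and 1.55 in myotubes. The response was lower in clone 2-7 for 9 of them and higher for 1, beside 29.9% and 20.2% of all genes tested. Myh8 was at 0.0767 ± 0.0544 CPM in control myoblasts and 28.7 ± 4.12 CPM in those of clone 2-7, and Actn2 at 0.0886 ± 0.0478 and 47.04 ± 11.2 CPM. Both control levels are near the limit of 3 counts (0.0562 to 0.0668 CPM in these libraries), so the sizes of the myoblast folds and interactions are uncertain. In CPM the gap of both genes was wider in myotubes. Clone 2-7 was higher at both stages, with a smaller fold between them: the interaction was -6.21 ± 0.42 for Actn2 (adjusted p = 1.1e-08). The smooth muscle markers differed less before differentiation, with a median log2 difference of 0.54 in myoblasts and a response higher in 7 of 8 cases. Actg2 went from 148 ± 5.53 CPM in control myoblasts to 10.4 ± 3.42 CPM in control myotubes and was at 539 ± 19.99 and 379 ± 37.4 CPM in clone 2-7.

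All 41 amino acid response genes were lower in clone 2-7 myotubes, while in myoblasts 27 were higher, 7 were lower and the others did not pass. Trib3 was at 4.35 ± 0.361 CPM in control myoblasts and 8.22 ± 1.87 CPM in clone 2-7 myoblasts, where it was higher (log2 difference 0.91, adjusted p = 3.72e-05), before it reached 333 and 6.95 CPM in myotubes. Asns was at 74.9 ± 4.64 and 146 ± 5.86 CPM in myoblasts, and Atf4 at 286 ± 2.03 and 395 ± 5.15 CPM. For all 3 genes the control means were far higher in myotubes than in myoblasts, while the clone 2-7 means of both stages were close. The response was lower in clone 2-7 for 39 of the 41 listed genes and higher for none, with a median log2 difference of -2.12. Of all genes tested, it was lower for 29.9% and higher for 20.2%.

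Matrix genes were split in myoblasts: of the 51 matrix protein genes, 15 were higher and 26 lower in clone 2-7 myoblasts (median log2 difference -0.42), and of the 36 collagen chains 14 and 10. Fn1 was at 5624 ± 449 and 5540.1 ± 409.6 CPM in control and clone 2-7 myoblasts and did not pass there (log2 difference -0.02, adjusted p = 0.839), and Fbn1 was at 459 ± 28.1 and 283 ± 25.2 CPM. Bgn, in contrast, was lower already in clone 2-7 myoblasts, at 3204 ± 97.7 and 541 ± 27.4 CPM. The response was lower for 36 of the 51 matrix protein genes and 21 of the 36 collagen chains. Replication and mitosis genes turned round: of the 46 and 57 genes, 36 and 28 were lower in clone 2-7 myoblasts, and the response was higher for 38 and 37. Cholesterol synthesis genes were lower before differentiation and split after it, with 26 of 30 lower in myoblasts, 12 higher and 12 lower in myotubes (7 lower with DESeq2 size factors), and a higher response for 21. Of all genes tested, 26.4% were higher and 26.6% lower in clone 2-7 myoblasts, and 31.0% and 37.0% in myotubes. The response was higher for 20.2% and lower for 29.9%.

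Levels in the second edited clone, the overexpressor, were set beside these. It shares the control with clone 2-7, so only the direct test between the clones is used, in which 5217 genes were higher in clone 2-7 (29.1%) and 5475 lower (30.6%). This difference also moved with GC content, from a median of -0.84 in the bin with the least GC to 0.23 in that with the most. With GC correction 4500 genes were higher and 5745 lower, and those lower by at least 2-fold went from 1960 to 1399. Single results between the clones are given without that correction. Meg3 was at 92.6 ± 13.4 CPM and Rian at 148 ± 32.03 CPM in overexpressor myotubes. The amino acid response genes did not separate the clones as a group: 13 of 41 were higher in clone 2-7, 13 lower and the median was 0.02. Atf4 was at 1153 ± 19.9 CPM in the control, 454 ± 22.04 in clone 2-7 and 434 ± 34.8 in the overexpressor, with a difference between the clones of 0.06 ± 0.06 (adjusted p = 0.36). Fn1 was at 5236 ± 393 CPM in the overexpressor, and matrix protein genes were higher in clone 2-7 in 22 and lower in 19 of 51 cases.

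Other results did separate the clones. Of 19 thin filament genes, 13 were higher in clone 2-7 than in the overexpressor and 4 lower (median log2 difference 0.45). The rise over the control was largely shared, however. These genes summed to 19896 to 19977.5 CPM in the control, 35026.5 to 38587 in the overexpressor and 50953 to 61041 in clone 2-7. Calcium release and excitation genes summed to 6677 to 6831, 13551 to 14481 and 14984 to 17472.5 CPM. The synapse genes overlapped between the clones, at 6685 to 7044 CPM in the overexpressor and 6619 to 7376 CPM in clone 2-7. Actn2 was at 191 ± 37.7 CPM in the overexpressor (difference between the clones 1.42 ± 0.17, adjusted p = 4.31e-06). The perinatal myosin Myh8 was at 111 ± 31.2 CPM in the overexpressor, near the control and under clone 2-7 (log2 difference 2.25, adjusted p = 8.61e-08), whereas Myh4 was at 589.7 ± 76.9 CPM and did not pass between the clones (adjusted p = 0.481). Ppargc1a was at 0.705 ± 0.354 CPM in the overexpressor, the lowest of the 3 lines (log2 difference 3.48 between the clones). The 8 smooth muscle markers summed to 5044 to 6389 CPM in the overexpressor, above the control (1968 to 2345 CPM) and under clone 2-7 (7908 to 9105 CPM). Between the clones, 5 of the 8 were higher in clone 2-7 and 0 lower. Lmod1, one of them, was at 14.8 ± 1.01 CPM, and Mylk, of the wider SRF and YAP list, at 19.9 ± 1.46 CPM, both well under clone 2-7. In that wider list 14 of 32 genes were higher in clone 2-7 and 10 lower, beside 29.1% and 30.6% of all genes tested. Sfrp2, at 0.344 ± 0.198 CPM, was lower still in the overexpressor than in clone 2-7, and Mest was at 64.7 ± 13.4 CPM there, above both other lines.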

How the data were processed

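RNA sequencing counts of 18 C2C12 libraries were used, 6 of them in the main comparison. The deposited values are raw read counts, 1 row for each Ensembl gene ID. Per the submitters' processing notes, STAR 2.7.9a, featureCounts, Subread 2.0.3, FastQC 0.11.7, DESeq2 1.32.0 and mm10 are named, without role or order. Neither the annotation release nor strand use in counting is given in the sources used here. Of 55450 gene IDs, 55190 matched GENCODE M21 (GRCm38), and the others held 0.00589% of the counts.

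Counts were fitted in R 4.3.3 with edgeR 4.0.16 (TMM factors, filterByExpr, robust quasi-likelihood test) over all 18 libraries and 6 groups, with 12 residual degrees of freedom. P-values were adjusted by Benjamini-Hochberg over the 17912 genes left by the filter. Contrasts were clone 2-7 against control in myotubes and in myoblasts, their difference, and clone 2-7 against the overexpressor in myotubes. CPM use TMM-scaled totals. In simulated myotubes, 67, 67 and 66 of 17912 genes, all above a minimum level, were changed 1.5-fold, 2-fold and 4-fold. Of these, 59.7%, 86.6% and 100% were called, and 9 of 17712 unchanged genes. The data held 12178 called genes and a GC trend between the groups, which the simulation did not. It therefore does not give the error rate of the calls here. Replicates of a group differed by far more than sampling noise, and the biological coefficient of variation was 9.22% in the control and 12.5% in clone 2-7.

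The comparison, the 64 gene lists and the 29 isoform pairs were chosen with earlier results of these data known, and lists are described by counts and medians only. Genes were named by rule: the cluster genes; the 8 highest and 8 lowest folds with at least 5 CPM; the 8 largest gains and losses in CPM; up to 5 members of a list and up to 2 that went the other way; the 5 highest and 5 lowest interactions; and both members of each pair. The rankings by fold, CPM and interaction left out genes of the mitochondrial genome and those with clone-based or predicted names. Other genes were chosen after their values were seen, to complete a family or pathway. Some genes that fall under the rule are not reported here. Alternatives were DESeq2 (1.42.0) size factors and test, library totals, no filter, a test against a 2-fold change, a fit of the compared groups only, a replicate block, leaving out each library, and a GC trend removed per library, which was chosen after seeing the data.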

Additional observations from a re-analysis of the deposited data

Results flagged for a closer look

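The difference between clone 2-7 and control changed between myoblasts and myotubes for 8978 genes by the interaction test (edgeR's quasi-likelihood test, adjusted p under 0.05). Among genes called by at least 2-fold in myotubes, the highest interactions on the log2 scale were those of Ddit4l (8.27), Adgrf5 (7.98), Gpx3 (6.71), Cnn1 (5.73) and Gfra1 (5.67), and the lowest those of Car6 (-12.15), Klf15 (-12.14), Stc1 (-12.10), Aldh1a1 (-11.81) and Col15a1 (-10.26). Gfra1, a receptor for glial-derived growth factor, was at 89.9 ± 5.58 CPM in control and 80.1 ± 3.26 CPM in clone 2-7 myoblasts and at 3.44 ± 0.406 and 157 ± 17.96 CPM in myotubes. Gpx3 was at 82.5 ± 6.73 and 0.0911 ± 0.0378 CPM in myoblasts and 35.7 ± 6.84 and 4.12 ± 0.446 CPM in myotubes. For Car6 and Klf15 both myoblast groups and the clone 2-7 myotubes were at the limit of detection, so the sizes of these 2 fitted values depend on the prior count. Col15a1 was at 0.953 ± 0.0321 and 6.55 ± 0.538 CPM in myoblasts and 269 ± 35.2 and 1.499 ± 0.219 CPM in myotubes.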

How the results depend on the processing

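The numbers of genes higher and lower in clone 2-7 myotubes (5557 and 6621) stayed within 1.5 times under every alternative run. They were 6528 and 5731 with DESeq2 size factors, 6527 and 5791 with DESeq2's test, 5956 and 6240 with library totals, 5453 and 6608 without a filter, 5598 and 6011 with the 2 groups alone, and 5290 and 7040 with GC correction. Leaving out each library gave 5143 to 5398 higher and 6092 to 6647 lower in myotubes, with 2247 to 2337 and 2826 to 3442 by at least 2-fold. Such fits gave 4160 to 4320 and 4301 to 4472 in myoblasts, 3237 to 3647 and 4745 to 5587 for the response, and 4358 to 5098 and 4614 to 5521 against the overexpressor. Tested against a 2-fold change itself instead of against 0, fewer genes passed, as the stricter hypothesis requires: 1496 higher and 1908 lower in myotubes (2353 and 3144 with the 2-fold filter), 1086 and 939 in myoblasts (1746 and 1528), 766 and 1152 for the response (1485 and 2733), and 749 and 654 against the overexpressor (1358 and 1960). The letters of the libraries do not pair them: same-letter deviations of control and clone 2-7 myotubes correlated at -0.053 for A, 0.053 for B and -0.181 for C. With the letter as a replicate block 5436 genes were higher and 6469 lower in myotubes, 4526 and 4599 in myoblasts, 3425 and 5056 for the response and 5029 and 5206 against the overexpressor. With GC correction and block together 5214 were higher and 6956 lower in myotubes. Of 259 named genes, 250 had a value in all 14 fits, and 234 of these kept their direction and their side of the threshold in each. Of the 9 without a value in some fit, 7 kept both in the others. Among all of them 1 turned, Actn1, from a log2 difference of 0.22 to -0.0401 with GC correction and -0.0415 with GC correction and block. The cause was not tested. Counts under about 3 per library limit every fold of a gene near absence.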

Other observations

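Markers of several cell types outside muscle were measured besides those of fibroblasts. The 8 endothelial markers summed to 1.71 to 2.06 CPM in control and 5.02 to 6.04 CPM in clone 2-7 myotubes, with Emcn and Tie1 at 3 counts or fewer, and the 8 macrophage markers to 8.49 to 9.95 and 3.82 to 4.39 CPM, with Ptprc, Adgre1 and Tyrobp at that limit. Epithelial markers summed to 15.5 to 16.99 and 3.23 to 5.08 CPM, adipocyte markers to 38.7 to 42.8 and 24.8 to 26.6 CPM, chondrocyte markers to 47.1 to 54.4 and 53.5 to 62.1 CPM and neural markers to 34.4 to 39.5 and 38.9 to 40.5 CPM. Osteoblast markers fell in 4 of 6 tested cases and summed to 74.5 to 77.7 and 18.7 to 23.6 CPM, most of it the bone factor Runx2, which fell from 72.5 ± 1.62 to 13.3 ± 1.96 CPM. Schwann cell markers summed to 85.1 to 90.6 and 270.3 to 277 CPM, nearly all of it the neuregulin receptor Erbb3, which muscle also transcribes and which rose from 86.6 ± 2.95 to 270.3 ± 3.91 CPM, while the defining Sox10 and Foxd3 were at 3 counts or fewer.

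Regulators of splicing moved in both directions, with 5 of 18 up and 8 down (5 down without control library A or clone 2-7 library C), beside 31.0% up and 37.0% down of all genes tested. Rbfox1, a splicing factor of differentiated muscle, rose from 5.18 ± 0.893 to 26.3 ± 1.77 CPM. The muscleblind genes Mbnl1 and Mbnl2, which promote adult splice forms, fell from 154 ± 21.5 to 50.6 ± 15.7 CPM and from 106 ± 15.5 to 37.3 ± 11.6 CPM. Hox genes, which record position along the body, fell in 11 of 25 cases and rose in 7, also near those shares: Hoxa11 fell from 35.1 ± 2.58 to 11.3 ± 0.333 CPM, and Hoxb3, Hoxb4, Hoxb5 and Hoxb6 had 0 to 3 counts in each control library and means of 0.348, 0.1205, 0.188 and 0.405 CPM in clone 2-7. The limb factor Tbx15 rose from 99.7 ± 6.32 to 232 ± 20.3 CPM and Tbx2 from 0.268 ± 0.147 to 10.4 ± 0.979 CPM. Of 35 genes of a list of p53, its regulators and its targets, 20 rose and 10 fell, beside 31.0% and 37.0% of all genes tested. Btg2 went from 26.9 ± 1.31 to 92.7 ± 7.01 CPM and Sesn2, also a target of ATF4, from 130.4 ± 12.5 to 39.1 ± 1.61 CPM.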
